A study of Mus musculus with 10 samples.

Results

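The 10 genes described here are markers of the liver sinusoidal endothelium: Stab1, Stab2, Lyve1, Clec4g, Oit3, Dnase1l3, Kdr, Tek, Cdh5 and Pecam1. They were taken by gene symbol from the whole-transcript array values, and all 10 were among the 19935 genes measured. Total RNA of mouse liver at 12 weeks of age was measured on 1 array per liver, in 5 wild-type (WT) animals and 5 animals without nucleomethylin (NML-KO). Nucleomethylin is the nucleolar protein encoded by Rrp8, which takes part in silencing of ribosomal RNA genes. The sources used here do not give strain, sex, time of dissection, the way the gene was inactivated or the cells in which it was lost. The values come from whole liver, so fewer endothelial cells and less of a transcript per cell cannot be told apart. Nothing states how the animals of a group relate to each other, so p-values measure only the spread between these livers, which may be partly technical.

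Sinusoidal endothelial cells line the capillaries of the liver lobule. Unlike most endothelium they have open pores and no complete basement membrane, and they take up waste macromolecules from blood through scavenger receptors and lectins. They depend on VEGF and angiopoietin signals, as other endothelium does, and they send signals to hepatocytes that set up the zones of the lobule. When they lose this specialised state, scavenger receptors and lectins are typically lost while general endothelial genes such as Pecam1 and Cdh5 stay or rise.

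The labels held for the targeted gene: log2 Rrp8 intensity was 7.65 to 7.90 in WT and 6.65 to 7.19 in NML-KO livers, a difference of -0.88 (SE 0.10, limma adjusted p = 0.109). The livers also fell into 2 sets by Dbp, a transcription factor gene under direct control of the circadian clock. Log2 Dbp was 9.68 to 10.2 in WT 1, WT 2 and NML-KO 1 to 3, called Dbp-high livers here, and 6.20 to 6.60 in WT 3 to 5 and NML-KO 4 and 5, called Dbp-low livers. These sets come from a measured gene and are no label of the study, so they are used to look at genotype within a set, and levels of the sets themselves are given with no test. Median array intensities lay between 62.5 and 66.7, and precision is limited by how few arrays there are.

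RefSeq promoter sequence was at hand for 5 of the 10 genes (Stab1, Stab2, Clec4g, Kdr and Tek, build GRCm38.p6). The 250 bases before the annotated start are shown for 4 of them. Stab2, Kdr and Tek are shown because they varied together between livers, and Clec4g because its WT values differed between the Dbp sets. Capitals mark GGAA or its reverse complement TTCC, the core of the motif bound by ETS factors, the family that includes the endothelial regulators Erg and Fli1. All are written 5′ to 3′ on the strand of the gene.
Stab2 (chr10:87007943-87008192, minus strand): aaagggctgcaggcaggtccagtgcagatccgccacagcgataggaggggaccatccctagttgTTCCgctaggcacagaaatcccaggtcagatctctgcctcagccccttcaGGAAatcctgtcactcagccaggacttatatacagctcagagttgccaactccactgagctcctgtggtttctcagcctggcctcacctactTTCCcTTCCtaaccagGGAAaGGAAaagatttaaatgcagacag
Kdr (chr5:75978456-75978705, minus strand): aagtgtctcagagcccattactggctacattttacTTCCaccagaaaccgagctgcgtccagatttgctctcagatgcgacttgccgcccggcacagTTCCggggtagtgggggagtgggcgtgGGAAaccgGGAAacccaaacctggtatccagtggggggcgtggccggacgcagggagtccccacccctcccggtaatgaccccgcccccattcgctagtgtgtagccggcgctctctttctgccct
Tek (chr4:94739039-94739288, plus strand): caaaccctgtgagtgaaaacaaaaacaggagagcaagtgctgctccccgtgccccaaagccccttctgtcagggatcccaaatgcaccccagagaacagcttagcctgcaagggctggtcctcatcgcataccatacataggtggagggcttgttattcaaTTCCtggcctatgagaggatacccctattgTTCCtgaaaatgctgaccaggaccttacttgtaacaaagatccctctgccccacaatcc
Clec4g (chr8:3720652-3720901, minus strand): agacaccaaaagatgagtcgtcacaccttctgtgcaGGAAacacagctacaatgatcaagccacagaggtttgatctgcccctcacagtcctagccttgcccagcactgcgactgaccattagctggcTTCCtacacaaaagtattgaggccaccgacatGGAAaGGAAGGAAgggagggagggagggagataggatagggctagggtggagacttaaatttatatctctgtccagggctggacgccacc

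The core GGAA, counted on both strands with overlaps allowed, occurred 6 times before Stab2, 4 times before Kdr, 2 times before Tek and 5 times before Clec4g. It was present in 93.4% of 32851 promoter windows of the same length, with a median of 3 matches, so its presence alone does not set these promoters apart. The longer form AGGAAG, which contains the core, was found before Clec4g (3 matches), Stab1 (1 match) and Stab2 (1 match), against 29.5% of all windows. The GATA motif GATAA, the clock E-box CACGTG and the D-box TTATGTAA, the site type bound by the Dbp protein, had no match in any of the 5 windows. They occurred in 22.6%, 6.02% and 0.819% of all windows. A match here is a run of letters, not evidence of binding.

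None of the 10 markers differed by genotype beyond the spread between livers. The mean signal of every marker was nevertheless on the lower side in NML-KO livers, from 99.1% of WT for Lyve1 to 86.3% for Dnase1l3. By limma with Benjamini-Hochberg adjustment over all genes, 0 of 10 markers passed an adjusted p of 0.05, where 0 of all genes (0.0%) passed. Rrp8, the targeted gene, did not pass either (limma adjusted p = 0.109), so this count does not show that the genotypes are alike. At an unadjusted p below 0.05 the count was also 0 of 10, against 1.66% of all genes lower and 1.05% higher. The median log2 difference of the markers was -0.08, against -0.01 over all genes, and 53.4% of all genes had a difference below 0. Since the markers vary together from liver to liver, their shared sign is not 10 separate observations. In no marker were the genotypes free of overlap, which held for 0.271% of genes lower and 0.135% higher.

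**Figure D1:**
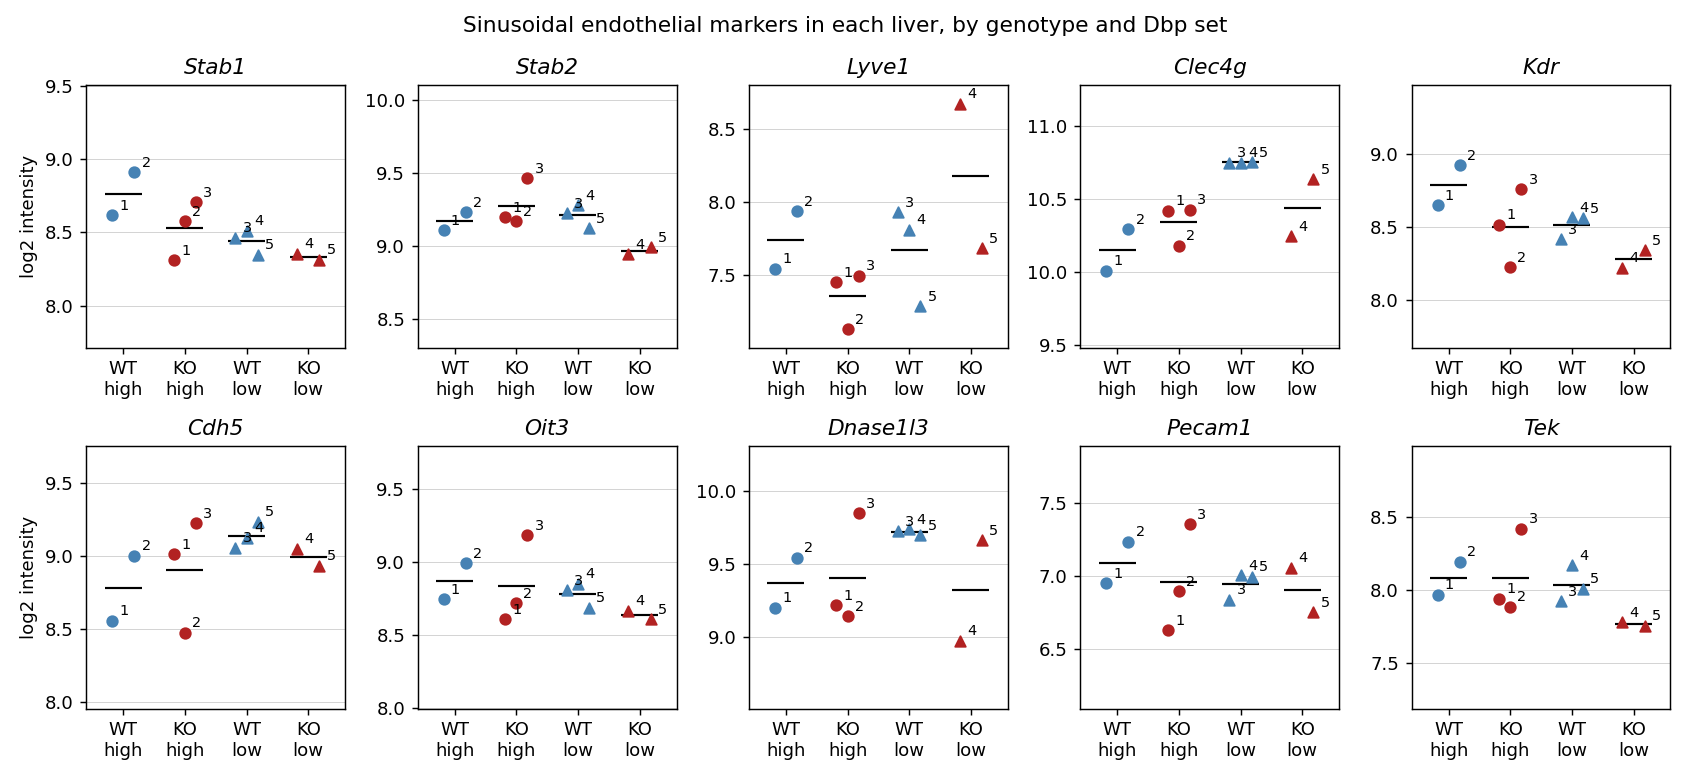
Log2 intensity of the 10 markers (y axis) in each liver by genotype and Dbp set (x axis, high for Dbp-high and low for Dbp-low livers), with WT in blue, NML-KO in red, replicate numbers beside the points and bars at the means. Every panel spans the same log2 range. The 3 WT Dbp-low livers coincide at 10.75 for Clec4g, and NML-KO 4 stands above all other livers for Lyve1 at 8.68.

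The scavenger receptors came first. Stab1 (probe set 10418506, chromosome 14) encodes stabilin-1, a large receptor of sinusoidal cells and some macrophages that binds modified lipoproteins and matrix fragments. Its log2 intensity was 8.62, 8.91, 8.46, 8.51 and 8.35 in WT 1 to 5 and 8.31, 8.58, 8.71, 8.35 and 8.31 in NML-KO 1 to 5. WT 2 was the highest liver, the remaining WT livers overlapped with NML-KO, and the difference was -0.12 (SE 0.12), or 92.1% of WT with a 95% confidence interval of 77.0% to 110.2%.

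Stab2 (probe set 10371506, chromosome 10) encodes stabilin-2, the main hyaluronan clearance receptor of these cells. It was 9.11, 9.23, 9.23, 9.28 and 9.12 in WT livers and 9.20, 9.17, 9.46, 8.94 and 8.99 in NML-KO livers, in replicate order as above. The WT values lay close together (9.19 ± 0.08, SD, n = 5), while the NML-KO values (9.15 ± 0.20, SD, n = 5) ran from the lowest to the highest of all livers. The difference was -0.04 (SE 0.09), with an interval of 84.2% to 112.3% of WT, the smallest standard error of the 10 markers.

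Lyve1 (probe set 10566934, chromosome 7) encodes a hyaluronan receptor best known from lymphatic vessels that also marks sinusoidal endothelium and some macrophages. Its values were 7.55, 7.94, 7.93, 7.81 and 7.29 in WT livers and 7.45, 7.13, 7.50, 8.68 and 7.69 in NML-KO livers. It had the widest range of the 10 markers, 1.55 on the log2 scale, with NML-KO 4 at the top and NML-KO 2 at the bottom. The difference was -0.01 (SE 0.26), and it was -0.26 without NML-KO 4 and 0.13 without NML-KO 2. Kupffer cell and macrophage genes, as the mean log2 of 16 genes, were also highest in NML-KO 4 (8.56) and lowest in NML-KO 2 (7.39) of all livers, and their part in the Lyve1 values was not tested. Lyve1 lies on the chromosome of Rrp8, with 107 protein-coding genes between them in the RefSeq order.

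The lectin and the secreted proteins followed. Clec4g (probe set 10576774, chromosome 8) encodes LSECtin, a C-type lectin of sinusoidal endothelium that binds glycans of viruses and of T cells. It was 10.01, 10.30, 10.75, 10.75 and 10.75 in WT livers and 10.42, 10.18, 10.43, 10.25 and 10.64 in NML-KO livers. WT livers split, with WT 1 and WT 2 below WT 3 to 5, whereas NML-KO livers filled the gap, and the difference over all livers was -0.13 (SE 0.16). A second Clec4g probe set lay at 4.72 to 5.20, near the 25th percentile of the arrays (4.90 to 5.00), and had a difference of -0.10. Its WT livers did not split in this way, with WT 1 at 4.93 and WT 3 at 4.79.

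Oit3 (probe set 10369264, chromosome 10) encodes a secreted zona pellucida domain protein that marks sinusoidal endothelium in liver. Its values were 8.74, 8.99, 8.81, 8.85 and 8.69 in WT livers and 8.61, 8.72, 9.18, 8.67 and 8.61 in NML-KO livers. NML-KO 3 stood 0.40 above the mean of the 10 livers, the other NML-KO livers lay within or just under the WT range, and the difference was -0.06 (SE 0.11).

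Dnase1l3 (probe set 10417526, chromosome 14) encodes a secreted DNase that cuts chromatin in blood. It was 9.20, 9.54, 9.72, 9.74 and 9.70 in WT livers and 9.21, 9.14, 9.84, 8.97 and 9.66 in NML-KO livers. Both extremes were NML-KO livers, NML-KO 3 and NML-KO 4, and the difference of -0.21 (SE 0.17) was the widest in size of the 10, at 86.3% of WT with an interval of 65.9% to 113.0%.

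The growth factor receptors were next. Kdr (probe set 10530692, chromosome 5) encodes VEGFR2, the main signalling receptor for VEGF in endothelium. Its values were 8.65, 8.92, 8.42, 8.57 and 8.56 in WT livers and 8.51, 8.22, 8.76, 8.22 and 8.34 in NML-KO livers. Of the NML-KO livers, 3 lay below every WT liver, but NML-KO 1 and NML-KO 3 lay within the WT range. The difference was -0.21 (SE 0.12), or 86.5% of WT with an interval of 71.6% to 104.3%, and limma's adjusted p was 0.999 (unadjusted p = 0.116, the smallest of the 10).

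Tek (probe set 10505954, chromosome 4) encodes TIE2, the receptor for angiopoietins. It was 7.97, 8.20, 7.92, 8.17 and 8.01 in WT livers and 7.94, 7.89, 8.42, 7.78 and 7.76 in NML-KO livers. As for Oit3, NML-KO 3 was the highest liver of all. Of the remaining NML-KO livers, NML-KO 1 lay within the WT range and the other 3 below it, and the difference was -0.10 (SE 0.12).

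The junction genes, which any endothelium expresses, also showed no genotype difference beyond the spread between livers. Cdh5 (probe set 10574438, chromosome 8), the gene of VE-cadherin, was 8.56, 9.002, 9.06, 9.13 and 9.24 in WT livers and 9.01, 8.48, 9.22, 9.05 and 8.93 in NML-KO livers. WT 1 and NML-KO 2 were low, every other liver was at 8.93 or above, and the difference was -0.06 (SE 0.15). Pecam1 (probe set 10392221, chromosome 11), the gene of the adhesion protein CD31, was 6.95, 7.23, 6.84, 7.01 and 7.00 in WT livers and 6.63, 6.89, 7.36, 7.06 and 6.75 in NML-KO livers. NML-KO livers held both its lowest and its highest value, and the difference was -0.07 (SE 0.13). The 95% confidence intervals were 75.7% to 122.0% of WT for Cdh5 and 78.0% to 116.65% for Pecam1.

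**Figure D2:**
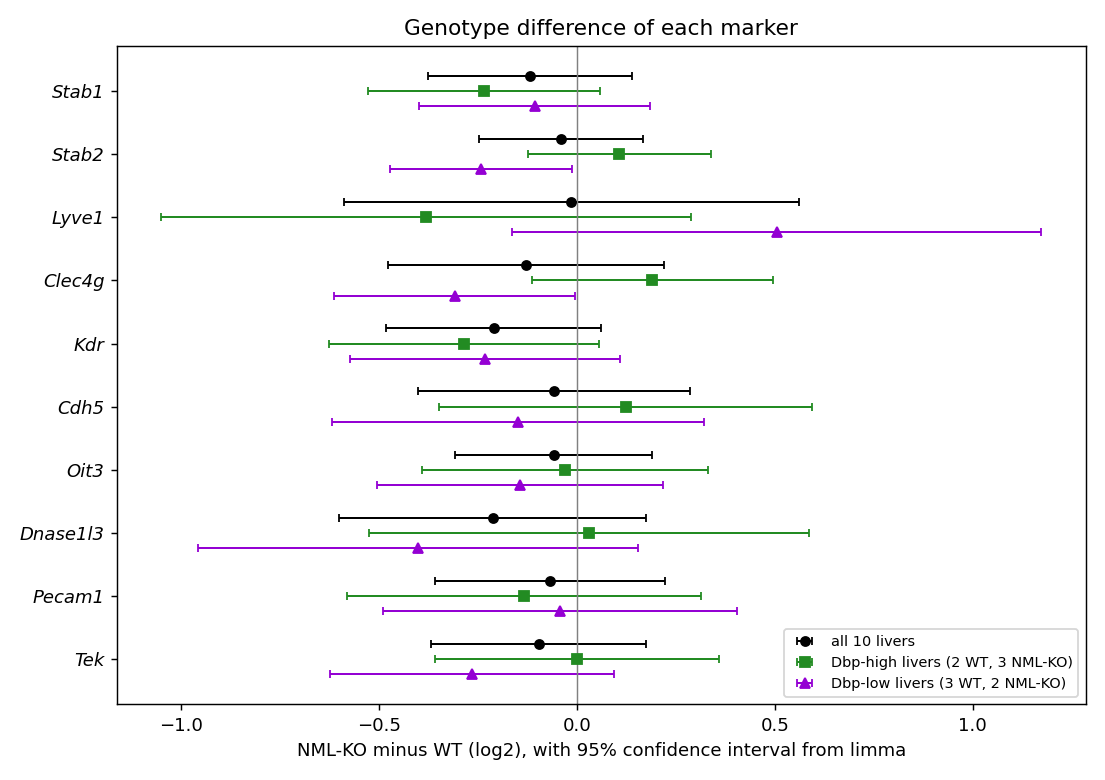
Difference of NML-KO from WT on the log2 scale (x axis) for each marker (y axis), with 95% confidence intervals from limma, over all 10 livers (black), in Dbp-high livers (green) and in Dbp-low livers (violet). All 10 intervals over all livers include 0, and in Dbp-low livers those of Stab2 and Clec4g end just below 0.

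Genotype was then compared within each Dbp set. In Dbp-high livers (2 WT, 3 NML-KO) 5 markers had a difference below 0 and 5 above, with a median of -0.02, against 53.8% of all genes below 0. In Dbp-low livers (3 WT, 2 NML-KO) 9 of 10 had a difference below 0, with a median of -0.19, against 53.0% of all genes and a median of -0.01. The gap between these medians rested on single livers. The Dbp-high median was -0.20 without NML-KO 3 and -0.15 without WT 1, and 0.10 without WT 2, while the Dbp-low median stayed between -0.21 and -0.17 with any liver left out. None passed limma's adjusted threshold in either set, as for all genes (0.0% in both sets). At an unadjusted p below 0.05 there were 0 of 10 in Dbp-high livers, against 6.43% of all genes lower and 3.79% higher, and 2 of 10 in Dbp-low livers, both lower, against 1.06% of all genes lower and 1.18% higher.

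In Dbp-low livers 7 markers lay below all WT livers in both NML-KO livers: Stab2, Clec4g, Kdr, Cdh5, Oit3, Dnase1l3 and Tek. Without overlap in that direction were 10.9% of all genes, and in the opposite direction, which held for 0 of 10 markers, 8.06%. The markers share the same 5 livers, so these are not independent counts. In Dbp-high livers only Lyve1 lay below WT without overlap, against 12.3% of all genes, and 0 of 10 lay above, against 8.19%.

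The genes with an unadjusted p below 0.05 in Dbp-low livers were Stab2 and Clec4g. Stab2 was 9.12 to 9.28 in the 3 WT and 8.94 and 8.99 in the 2 NML-KO livers, a difference of -0.24 (SE 0.10) with a limma adjusted p of 1.00 (unadjusted p = 0.0414). Clec4g was 10.75 in each of the 3 WT livers and 10.25 and 10.64 in the NML-KO livers, a difference of -0.31 (SE 0.13) with a limma adjusted p of 1.00 (unadjusted p = 0.0477). The Clec4g difference was -0.11 without NML-KO 4 and -0.50 without NML-KO 5. In Dbp-high livers the same genes had differences above 0, of 0.11 (SE 0.10) for Stab2 and 0.19 (SE 0.13) for Clec4g. These too depended on single livers, with 0.0144 without NML-KO 3 and 0.0455 without WT 1 for Stab2, and 0.0496 without WT 1 and 0.33 without WT 2 for Clec4g.

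The change of the genotype difference between sets was itself tested. In the interaction term of limma, Clec4g differed by -0.50 (SE 0.19, adjusted p = 0.757, unadjusted p = 0.0277) and Stab2 by -0.35 (SE 0.14, adjusted p = 0.765, unadjusted p = 0.0381). These were the 2 of 10 markers with an unadjusted p below 0.05, both towards lower values in Dbp-low NML-KO livers, against 2.65% of all genes lower and 3.84% higher, and no gene passed the adjusted threshold (0.0%). The interaction was below 0 for 6 of 10 markers, against 48.6% of all genes. Its median over the markers was -0.19, but -0.018 without NML-KO 3 and -0.020 without WT 1. Lyve1 went the opposite way, with 0.50 (SE 0.29) in Dbp-low and -0.38 (SE 0.29) in Dbp-high livers and an interaction of 0.89 (SE 0.42, limma adjusted p = 0.769). Its Dbp-low difference was 0.0099 without NML-KO 4 and 1.00 without NML-KO 5. Dnase1l3 also rested on 1 liver in the Dbp-low set, where its difference of -0.40 (SE 0.24) was -0.06 without NML-KO 4 and -0.75 without NML-KO 5.

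Kdr had nearly the same mean difference in both sets, with an interaction of 0.05 (SE 0.21) that leaves room for a difference between them. The difference itself was of similar size in each. It was -0.29 (SE 0.15) in Dbp-high and -0.23 (SE 0.15) in Dbp-low livers, and -0.26 (SE 0.10) with the Dbp set as a term in the model, or 83.6% of WT with an interval of 71.4% to 97.8%. That value had a limma adjusted p of 0.992 (unadjusted p = 0.0290), and it was the 1 marker of 10 with an unadjusted p below 0.05 in this model, against 2.81% of all genes lower and 1.55% higher. With each liver left out in turn, the Kdr difference ranged from -0.42 to -0.15 in Dbp-high livers and from -0.29 to -0.17 in Dbp-low livers. In the model with the set as a term it ranged from -0.32 to -0.19. No gene passed the adjusted threshold there (0.0%). In that model 9 of 10 markers had a difference below 0, against 55.0% of all genes, the exception being Lyve1 (0.06).

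Between the Dbp sets the markers went both ways, and in none of the 10 were the sets free of overlap. For comparison, 7.12% of all genes were higher and 5.04% lower in every Dbp-low liver. Averaged over genotypes, the means of Stab1, Kdr and Tek in Dbp-low livers differed from those in Dbp-high livers by -0.26, -0.24 and -0.18. The values were -0.14 for Oit3, -0.13 for Stab2 and -0.1 for Pecam1. Tek was at -0.05 in WT and -0.31 in NML-KO livers, and Stab2 at 0.04 and -0.31. The remaining markers of these were below 0 in both genotypes. Clec4g (0.35), Cdh5 (0.22) and Dnase1l3 (0.13) had means above those of Dbp-high livers. For Clec4g this was 0.60 in WT and 0.10 in NML-KO livers, for Cdh5 0.36 and 0.09, and for Dnase1l3 0.35 and -0.08. The Lyve1 mean of 0.38 came from 0.82 in NML-KO livers, where NML-KO 4 weighs on it, and -0.07 in WT livers.

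**Figure D3:**
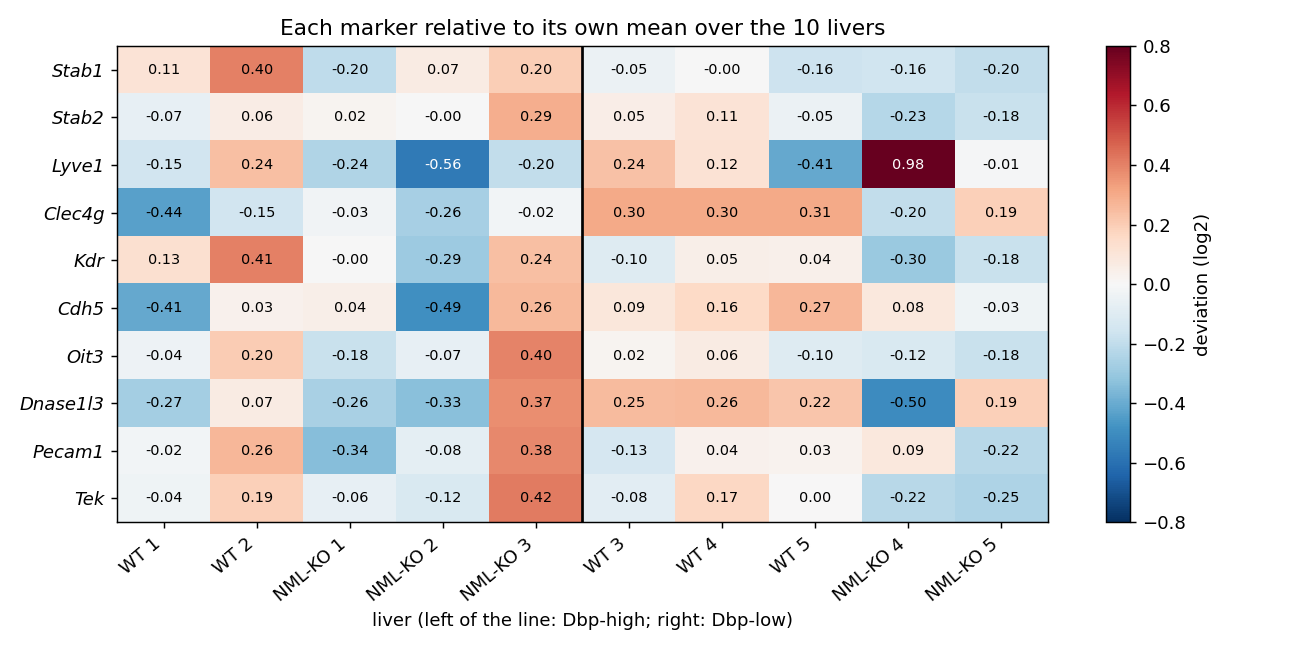
Deviation of each marker (y axis) from its own mean over the 10 livers on the log2 scale, for each liver (x axis), with Dbp-high livers left of the line and Dbp-low livers right of it. NML-KO 3 and WT 2 are red for most markers, NML-KO 2 is blue for most, and Lyve1 in NML-KO 4 reaches 0.98.

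Single livers differed from each other within a genotype, and most markers moved together in them. In NML-KO 3, 8 of 10 markers were above their own mean over the 10 livers and 5 were the highest of all livers (Stab2, Oit3, Dnase1l3, Pecam1 and Tek). In WT 2, 9 of 10 were above, and Stab1 and Kdr were the highest of all. NML-KO 2, by contrast, had 1 of 10 above, and Lyve1 and Cdh5 at their lowest there. NML-KO 1 had 2 of 10 above and held the lowest values of Stab1, Oit3 and Pecam1. The mean deviation over the 10 markers ran from -0.22 in NML-KO 2 to 0.23 in NML-KO 3, both NML-KO and both Dbp-high livers. These livers were also the extremes of median array intensity, in the opposite order. NML-KO 2 was the highest of all at 66.7 and NML-KO 3 the lowest at 62.5. The part of array intensity in the shared variation of the markers was not tested.

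To describe this shared variation, the mean of each genotype and Dbp set was taken from every gene, which leaves 6 degrees of freedom in 10 livers. Of 45 pairs of markers, 42 had a Pearson r above 0, with a median of 0.58 (median Spearman rho 0.55). The closest pairs were Stab2 with Oit3 (r = 0.93) and Kdr with Cdh5 (r = 0.92), followed by Stab2 with Tek and Oit3 with Tek (both r = 0.91). Lyve1 and Clec4g followed the others least, with median r of 0.35 and 0.40, and r was -0.22 between them. Clec4g was close to Dnase1l3 all the same (r = 0.82). Among the remaining 8 markers r was 0.28 or higher in all 28 pairs. Without NML-KO 2 and NML-KO 3, the livers farthest from the median, the median r over all pairs was 0.38 and 40 of 45 stayed above 0. These are descriptions in which all genes of a liver share its array, and they carry no test.

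**Figure D4:**
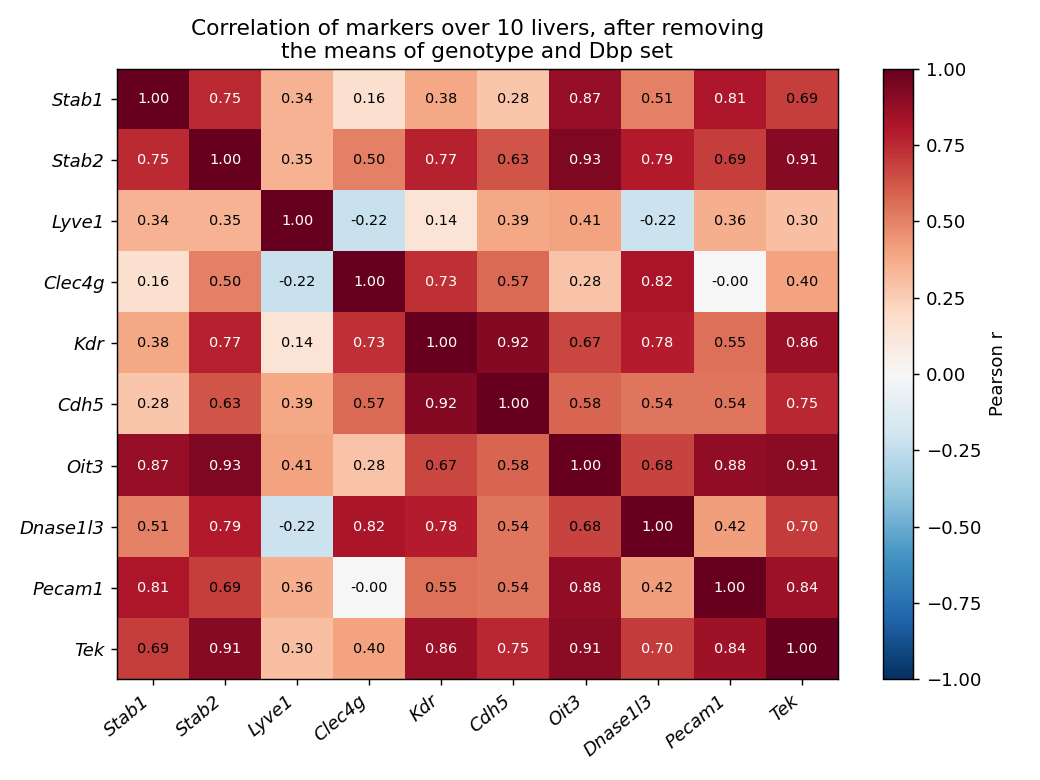
Pearson r between the 10 markers over 10 livers after the means of genotype and Dbp set were removed, on a colour scale from -1 to 1. Stab2, Oit3 and Tek form the closest group, and the rows of Lyve1 and Clec4g are the palest, with r of -0.22 between them.

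Outside the markers, the genes whose residual profile was most like the mean of the 10 were Gtf3a (r = 0.996), Rnf144b (0.988), Armh3 (0.985), Rsu1 (0.984) and C3ar1 (0.980), each over the same 10 livers. Gtf3a encodes the transcription factor of 5S ribosomal RNA genes, and C3ar1 the receptor for complement fragment C3a. They were chosen as the closest of 19935 genes, so these values are a description. Without NML-KO 2 and NML-KO 3, r was 0.957 or higher for each. The choice had used the livers that remained, so this is no separate check. The genotype differences of these genes were small, from -0.12 (SE 0.24) for Rnf144b to -0.02 (SE 0.20) for C3ar1.

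Other endothelial genes were read from 6 lists with 95 genes, all measured. Over all livers 61 of 95 had a difference below 0, against 53.4% of all genes, with a median of -0.03. None passed limma's adjusted threshold. At an unadjusted p below 0.05, 2 of 95 were lower (Notch4 and Hspg2) and 0 higher, close to the 1.66% and 1.05% of all genes. Endocytic and sinusoid-enriched genes had 11 of 15 below 0 with a median of -0.10. Their 2 genes of smallest p were Scarf1, a scavenger receptor gene, at -0.22 (SE 0.11) and Aqp1, a water channel gene, at -0.29 (SE 0.16). Junction and surface genes had 12 of 15 below 0 with a median of -0.06, led by Cldn5, the gene of the tight junction protein claudin-5, at -0.24 (SE 0.13) and Egfl7, a secreted endothelial factor gene, at -0.14 (SE 0.10).

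Receptors other than Kdr and Tek had 14 of 20 below 0 with a median of -0.03. Notch4, a Notch receptor gene of endothelium, had a difference of -0.15 (SE 0.07, limma adjusted p = 0.999), and Notch1 one of -0.21 (SE 0.10). Ligands of these receptors had 6 of 9 below 0 with a median of -0.02. Among them Vegfa, the gene of the main Kdr ligand, which hepatocytes make, differed by -0.13 (SE 0.06) and Vegfb by -0.18 (SE 0.12). Transcription factors had 11 of 21 below 0 and a median of -0.02. Gata4, which sets the sinusoidal state of liver endothelium, was at -0.29 (SE 0.16), and Hey1, a Notch target, at 0.18 (SE 0.10). Angiocrine and matrix genes had 7 of 15 below 0 and a median of 0.01, with Hspg2, the gene of the basement membrane protein perlecan, at -0.18 (SE 0.05, limma adjusted p = 0.999) and Edn1, the gene of endothelin-1, at 0.14 (SE 0.10).

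As a whole these 95 genes were split nearly evenly in direction between the Dbp sets. The interaction was below 0 for 46 and above 0 for 49, with a median of 0.02, and the Dbp-low difference was below 0 for 51 and above for 44, with a median of -0.01. The endocytic genes had an interaction median of 0.28 and a Dbp-low median of 0.01, where the 10 markers had -0.19 for both. Junction, ligand and transcription factor lists had medians above 0 for both. Medians below 0 for both were those of receptors (-0.06 and -0.08) and angiocrine genes (-0.09 and -0.04). In Dbp-low livers 17 of the 95 were lower without overlap, against 10.9% of all genes, and 4 higher, against 8.06%. The interaction had an unadjusted p below 0.05 for 11 of the 95, none of which passed the adjusted threshold: 3 were higher, against 3.84% of all genes, and 8 lower, against 2.65%. The 8 with a lower genotype difference in Dbp-low livers were Rspo3, Jam2, Ednrb, Tgfbr2, Plxnc1, Ramp2, Nrp1 and Wnt2. They are named for being the whole set, after their values were seen. Rspo3 and Wnt2 are given here for their known role, not their rank. In limma's interaction term they had the smallest and the largest unadjusted p of the 8 (0.00069 and 0.0436). They encode signals by which endothelium of the central vein region maintains pericentral hepatocytes. Rspo3 was at 0.54 in Dbp-high and -0.25 in Dbp-low livers (interaction -0.79, limma adjusted p = 0.717), and Wnt2 at 0.31 and -0.42 (interaction -0.73, limma adjusted p = 0.765). The 3 higher ones were Icam1, an adhesion molecule gene of activated endothelium, Mcam and Vegfd. Over all livers the differences were 0.08 for Rspo3 and 0.01 for Wnt2.

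**Figure D5:**
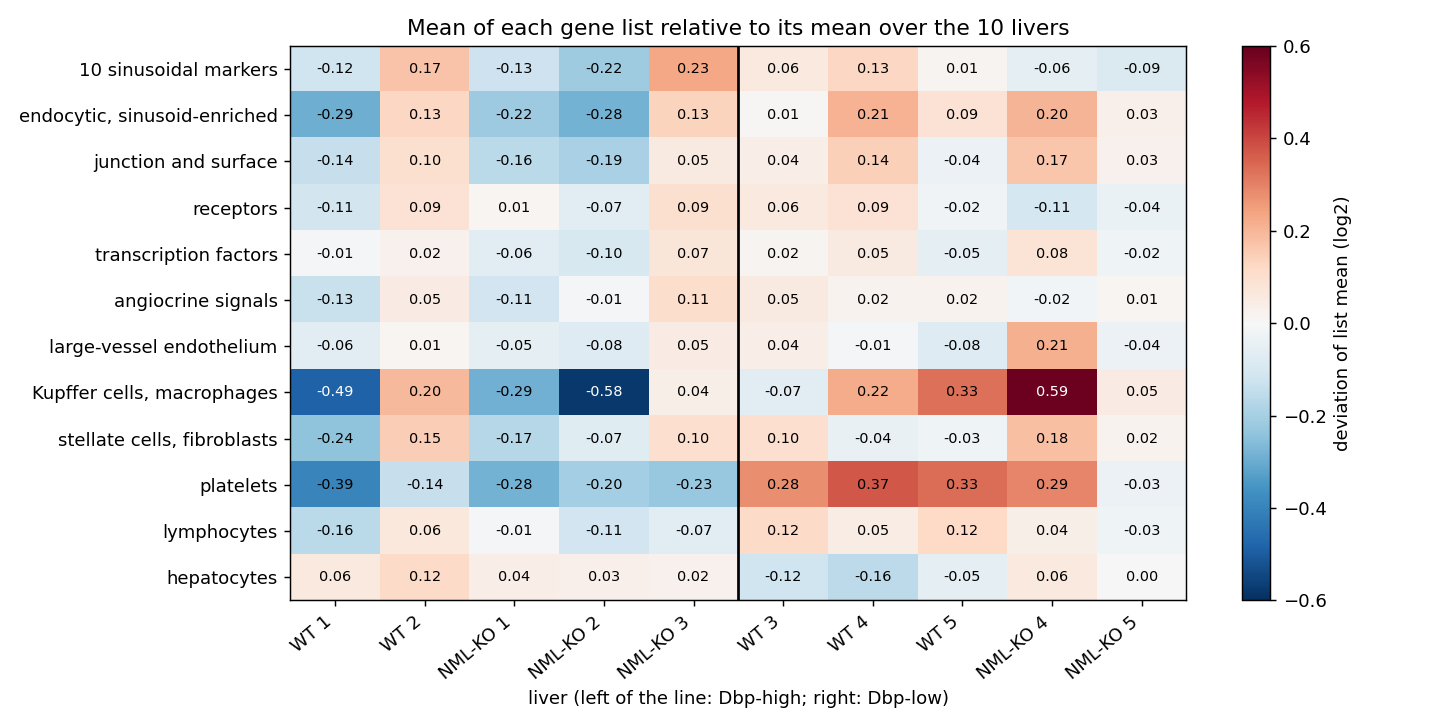
Mean log2 of gene lists (y axis) relative to each list's mean over the 10 livers, for each liver (x axis), with Dbp-high livers left of the line and Dbp-low livers right of it. Kupffer cell and macrophage genes run from -0.58 in NML-KO 2 to 0.59 in NML-KO 4, further than the 10 sinusoidal markers, and hepatocyte genes stay within 0.16 of 0.

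Markers of other liver cells moved with some of these livers. The mean log2 of the 16 Kupffer cell and macrophage genes, with Clec4f and Adgre1 as first entries, was 7.49 to 8.31 in WT and 7.39 to 8.56 in NML-KO livers. At an unadjusted p below 0.05, 0 of 16 were lower and 1 higher, against 1.66% and 1.05% of all genes. In Dbp-low livers 15 of 16 had a difference above 0 (median 0.18), where 53.0% of all genes and 9 of 10 sinusoidal markers were below 0. Only 1 of 16 was higher without overlap there, against 8.06% of all genes. In that set their mean was 8.56 in NML-KO 4 but 8.02 in NML-KO 5, against 7.90 to 8.31 in WT livers. In Dbp-high livers 12 of 16 were below 0 (median -0.13), against 53.8% of all genes. Over all livers 12 of 16 were also below 0 (median -0.06), against 53.4%. The Kupffer mean was lowest in NML-KO 2, WT 1 and NML-KO 1, the livers where the mean of the sinusoidal markers was also lowest (8.44, 8.54 and 8.53). In NML-KO 4 the lists parted: Kupffer genes were at their highest (8.56), while the sinusoidal mean (8.60) was below that of every Dbp-low WT liver (8.67 to 8.78). Some Kupffer cell genes, among them those of C1q, are abundant in other macrophages, and several genes of the endocytic list, such as Mrc1, Fcgr2b and Lgmn, are also made by macrophages.

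After removal of the genotype and Dbp set means, all 16 Kupffer genes had r above 0 with the mean sinusoidal profile (median 0.68), against 9971 of 19935 genes. The same held for 14 of 15 endocytic genes (median 0.70), 14 of 15 junction genes (0.59) and 12 of 15 stellate cell and fibroblast genes (0.49), the list that opens with Lrat and Des. For 11 hepatocyte genes, such as Alb and Ttr, the median was 0.24, and for 13 large-vessel genes, such as Vwf and Sele, 0.31. Bile duct genes (Krt19, Krt7 and others) had 3 of 6 above 0, and neutrophil genes (S100a8, S100a9 and others) had 3 of 10. The part of cell composition in the liver-to-liver variation of the 10 markers was not tested.

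Stellate cell genes had a mean of 7.41 to 7.80 in WT and 7.49 to 7.84 in NML-KO livers, and large-vessel genes of 6.35 to 6.47 and 6.35 to 6.64, with NML-KO 4 highest in both. Lymphatic genes other than Lyve1, headed by Pdpn and Reln, lay at 6.99 to 7.21 in WT and 7.00 to 7.27 in NML-KO livers, and NML-KO 4, where Lyve1 was highest, had 7.06. Platelet genes such as Itga2b and Gp9 were at 6.14 and 6.40 in the 2 Dbp-high WT livers and 6.82 to 6.91 in the 3 Dbp-low WT livers, the same split as Clec4g, and at 6.26 to 6.34 and 6.51 to 6.83 in NML-KO livers of the 2 sets. This list shares Clec1b with the endocytic list, and its part in the Clec4g values was not tested. Lymphocyte genes (Cd79a, Cd79b and others) had 5.25 to 5.53 in WT and 5.30 to 5.45 in NML-KO livers, and 3 red cell genes (Alas2 and Epb42 among them) 6.87 to 6.97 and 6.76 to 7.08. Of these lists, large-vessel, lymphatic, stellate, bile duct, lymphocyte, neutrophil, platelet and red cell genes had no member with an unadjusted p below 0.05 for genotype over all livers, and the 11 hepatocyte genes had 1, higher. Of all genes, 1.66% were lower and 1.05% higher by this measure, so lists this short would hold few such genes in any case.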

How the data were processed

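RNA of 10 mouse livers was fragmented and biotin-labelled with an Affymetrix terminal labelling kit, per the labels' protocols. The authors deposited linear intensity values for 28815 probe sets per array, from 18.4 to 29834, with nearly equal distributions. The one build in the submitters' processing notes is mm8. For background correction, normalization and summarization, the method is not given in those notes or the labels. A background left in the values would shrink fold differences of dim probe sets. Probe sets with 1 symbol in the platform table (21780) were named, 21689 of them updated through their gene ID in RefSeq (GRCm38.p6). Of several probe sets, the highest mean was used, which left 19935 genes. Only Clec4g of the markers had more than 1.

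Values were taken to log2 without a filter and fitted with limma 3.58.1 in R 4.3.3 (lmFit, eBayes, Benjamini-Hochberg over all genes, threshold 0.05): genotype alone, genotype with the Dbp set (log2 Dbp above 8 or not), and a mean for each genotype and set, whose contrasts gave the difference within a set and the interaction. Fits were tested on simulated data. Members and lists were chosen with earlier results of these data known. Named besides the markers were, per endothelial list, the 2 genes with the smallest p for genotype; per list of another cell type, the first 2 measured; the 5 genes, predicted genes left out, with the highest r to the markers' mean residual profile; and those stated to have been named after their values were seen. Motifs were counted in the RefSeq windows. The alternatives, besides leaving out each array in turn, were array weights, quantile normalization or median centring of the arrays, a limma prior that was trended and robust, removal of dim genes, averaging of a gene's probe sets, 16 added to intensities before log2, a threshold of 0.10, and replicate number as a block.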

Additional observations from a re-analysis of the deposited data

Results flagged for a closer look

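In 2 of the 20 groups of 5 livers examined, 1 liver stood apart from the others of its genotype by Dixon's criterion, which chance meets in about 1 of 20 groups. Both were NML-KO 3, with log2 Oit3 at 9.18 and log2 Tek at 8.42. The remaining NML-KO livers lay between 8.61 and 8.72 for Oit3 and between 7.76 and 7.94 for Tek. Oit3 and Tek had r = 0.91 with each other, so these are not separate observations.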

How the results depend on the processing

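Over all livers no gene passed the adjusted threshold under any alternative other than leaving out a liver, where the count was 0 to 1 (1 without NML-KO 4). With the Dbp set as a term it was 0 to 1, with 1 without WT 1, NML-KO 2 or NML-KO 4. Within Dbp-high livers it was 0 to 23 (23 without WT 1) and within Dbp-low livers 0 to 24 (24 without NML-KO 5, and 1 without WT 1 or WT 2). For the interaction it was 0 to 13 (13 without NML-KO 5, 11 without WT 1). A set of livers that keeps 1 WT or 1 NML-KO liver borrows its spread from the other groups.

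The median difference of the 10 markers stayed below 0 over all livers, from -0.17 to -0.04 with a liver left out. Under the other alternatives it ran from -0.090 to -0.046, against -0.082 in the main fit. The value of -0.046 came with quantile normalization, where the median over all genes was 0.00027. With a liver left out, the markers' median within Dbp-low livers ran from -0.21 to -0.17. Within Dbp-high livers it ran from -0.20 (without NML-KO 3) to 0.10 (without WT 2). For the interaction it ran from -0.31 (without WT 2) to -0.018 (without NML-KO 3), and it was -0.020 without WT 1. The count of markers below WT without overlap in Dbp-low livers was 7 to 9 with 1 of those livers left out, an alternative chosen after seeing the data, beside 16.8% to 29.8% of all genes.

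None of the 10 markers passed the adjusted threshold of limma in any of these fits, and the lowest adjusted p was 0.267 (Kdr, Dbp-high livers without NML-KO 3). The differences of Stab1, Clec4g, Kdr, Oit3, Dnase1l3 and Tek over all livers were below 0 under every alternative run. Lyve1 turned to 0.024 with quantile normalization, 0.071 with array weights and 0.062 with the Dbp set as a term, and ran from -0.26 to 0.13 with a liver left out. In the same way Stab2 ran from -0.12 to 0.012, Cdh5 from -0.17 to 0.059 and Pecam1 from -0.17 to 0.0094. The cause was not tested. With the replicate number as a block the count of genes was 0 and each difference was as in the fit without it. Deviations of same-numbered livers had r of 0.26 to 0.54 for 4 of 5 numbers and -0.42 for number 3, whose livers lie in different Dbp sets. Since r was not above 0.1 for every number and the labels give no shared litter or day, the numbers were not treated as pairs.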
